A study of Mus musculus with 6 samples.

Results

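The genes described here are the secreted and cell surface proteases that cut the extracellular matrix, with their direct inhibitors. They were chosen by symbol: every gene named Mmp, Adam or Adamts followed by a number, together with Timp1 to Timp4, Reck, Plau, Plat and Plaur. This rule found 82 genes among the 23337 of the table. The 82 were 23 matrix metalloprotease genes, 32 Adam genes, 19 Adamts genes, 4 Timp genes, Reck and the 3 genes of the plasminogen activator system.

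The tumours were basal cell carcinomas of the ear epidermis of mice. Ko tumours arose in R26-SmoM2/+ Yapfl/fl K14CreER mice and Wt tumours in R26-SmoM2/+ K14CreER mice, with 3 RNA libraries of each. All mice carried SmoM2, an active form of the Hedgehog receptor Smoothened, at the Rosa26 locus, and CreER under the keratin 14 promoter, which is active in basal keratinocytes, so tamoxifen switched on the oncogene in both groups and deleted Yap only in Ko. Tamoxifen was given at 4 weeks of age and the cells were taken 6 weeks later, by the stage label of each library. Nothing in the labels states that each library stands for its own animal, and the p-values below describe the spread among libraries, which may be technical.

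Matrix metalloproteases are zinc enzymes made as inactive precursors. Together they can digest collagens, laminins, proteoglycans and other matrix proteins, and the Timp proteins block them by binding the active site. Adam proteases are anchored in the membrane and shed the outer parts of growth factors and receptors, Adamts proteases are secreted and bind matrix through thrombospondin repeats, and the plasminogen activators turn plasminogen into plasmin, which digests fibrin and can activate metalloprotease precursors. In skin tumours these enzymes are studied at the border between epithelium and stroma, and some are made by tumour cells and others mainly by fibroblasts or leukocytes.

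The libraries held 15572640 to 25179110 reads in Ko and 15405490 to 25260431 reads in Wt, and 3 reads corresponded to 2.47 to 3.90 normalized counts. Yap1, the targeted gene, stood at 591, 773 and 1764 normalized counts in the Ko libraries, against 5765, 6004 and 5573 in the Wt libraries. Its log2 difference was −2.63 ± 0.39 (SE), with an adjusted p of 0.517 by limma and 1.4e-07 by DESeq2. All 6 markers of basal keratinocytes and all 6 Hedgehog targets were detected. The pan-leukocyte marker Ptprc averaged 0.771 normalized counts. Of 6 macrophage markers in the table only Cd68 was detected (mean 105), and of 6 neutrophil markers S100a8, S100a9 and Cxcr2 were, while Csf3r had no read in any library. The titles open with a code, DM22 for replicates 1 and 2 of both genotypes and DM24 for replicate 3 of both, and the labels do not say what it marks. Libraries with the DM24 code were the shallower ones, and transcripts of the X-inactivation gene Xist (58654 and 59594 normalized counts, against 8.62 to 15.1 in the others) were high in them, while the Y-linked Ddx3y had no read there.

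Of the 82 genes, 44 reached a mean of 10 normalized counts over the 6 libraries and are called detected, which is 53.7% against 58.6% of all genes. Detection ran at 14 of 23 Mmp genes, 14 of 19 Adamts genes, 3 of 4 Timp genes and all 3 genes of the plasminogen activator system, with Reck. It was lowest among the Adam genes, at 9 of 32, and 14 of the 23 others had no read in any library. Many of these, among them Adam2, Adam3, Adam18, Adam24 and Adam26a, are known for their expression in testis. In all, 17 genes had no read, including Mmp7 and Mmp20, and 21 more had some reads but stayed below the limit. Adam12 was among these, at 0, 3.30 and 5.06 normalized counts in Ko and 0, 0 and 16.9 in Wt, and so was Timp4, with at most 7.59. The gene just inside the limit was Adamts2, with a mean of 10.2, and the one just outside was Adamts6, with 7.90.

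Per kilobase of exon, Adamts1 and Timp3 had the highest levels, and both secreted and membrane-anchored proteases came next. Adamts1, a protease that cuts the proteoglycans versican and aggrecan, had 4745 normalized counts per kilobase over the 6 libraries and made up 84.9% of the Adamts sum. Timp3, the inhibitor that stays bound to the matrix and also blocks Adam17, followed with 1901 per kilobase. Mmp14 (MT1-MMP, a membrane-anchored collagenase that activates Mmp2) had 814 per kilobase, Plau (urokinase) 794, Adam10 608, Adam9 448 and Mmp2 444. The Mmp levels per kilobase summed to 2193, 2073 and 2654 in Ko libraries, against 1570.1, 2197 and 2158 in Wt libraries. The groups overlapped in this sum.

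Ko and Wt were first compared for all 44 detected genes. None of them passed limma across the 13671 detected genes with Benjamini-Hochberg adjustment, and limma called 0 of all 13671 genes (0%). At an unadjusted p under 0.05 limma held 1 of the 44, Adamts18, and 5.55% of all genes. The edgeR test called 0 genes as well and held the same gene at an unadjusted p under 0.05, with 5.63% of all genes. DESeq2 on the recovered reads called 1 of the 44 (2.27%), against 0.490% of all genes, and this gene, Adamts18, was higher in Ko, as were 0.168% of all genes.

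DESeq2 was also fitted with the replicate number as a block and with the DM code as a term. In both fits it called 3 of the 44 (6.82%), Adamts18 and Mmp2 as higher in Ko and Adamts1 as lower. On simulated data unchanged genes made up 46 of 239 DESeq2 calls with the block and 43 of 236 with the code. This share among the calls was above 0.05, as it was for limma and edgeR with these terms. With the block 1.24% of all genes were called, 0.417% as higher and 0.819% as lower in Ko. With the code 2.22% were called, 0.761% as higher and 1.46% as lower in Ko. Neither limma nor edgeR called any gene in these fits (0%); at an unadjusted p under 0.05, limma held 6 of the 44 with the block (13.6%, against 9.53% of all genes) and 3 with the code (6.82%, against 11.3%). At the same level edgeR held 7 with the block (15.9%, against 9.49%) and 3 with the code (6.82%, against 11.4%). Of the 44 log2 differences, 23 were above 0 and 21 below (47.7%, against 51.0% of all genes), with a median of 0.05 against −0.00 for all genes tested.

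**Figure D1:**
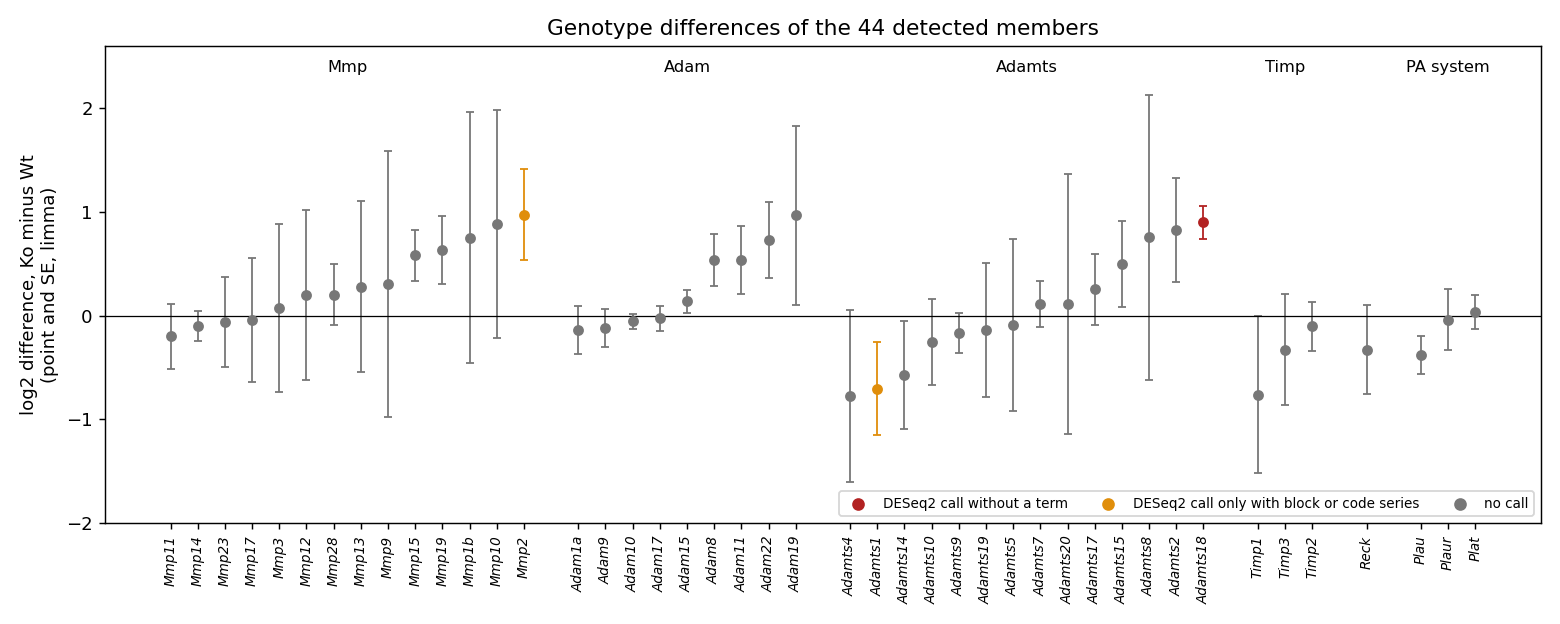
Log2 difference (Ko minus Wt, limma, bars show the SE) of each of the 44 detected genes, grouped by family, with colours for the genes that DESeq2 called. Adamts18 stands at 0.90 with a short bar, while Mmp10, Mmp1b, Mmp9 and Adamts8 have bars longer than their difference.

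Adamts18 is a secreted protease of the Adamts family that is known for roles in eye and lung development. It had 1292, 1526 and 1153 normalized counts in Ko, against 797, 579 and 759.6 in Wt. Every Ko library was above every Wt library. The means were 1324 ± 188 in Ko and 712 ± 116 in Wt (SD, n = 3 each), and the log2 difference was 0.90 ± 0.16 (SE), with 0.70, 1.40 and 0.60 in the pairs of equal replicate number. Its adjusted p was 0.666 by limma, 0.000831 by DESeq2, 0.00201 by DESeq2 with the replicate block and 0.00018 by DESeq2 with the code as a term. When each library was left out in turn DESeq2 called it in 5 of 6 fits, and the call was lost without Ko library 2 (DESeq2 adjusted p = 0.0668). The gene lies on the minus strand at chr8:113697126-113848738 (GRCm38). In whole-cell RNA of this kind, fewer cells of a type and less RNA per cell cannot be told apart.

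Groups without overlap were found for 3 of the 44 genes (6.82%), against 11.0% of all genes. All 3 were higher in Ko, as were 5.08% of all genes. Beside Adamts18, the other two were low. Adam22, an Adam protein without protease activity, had 16.1, 14.8 and 16.4 normalized counts in Ko, against 7.57, 7.66 and 13 in Wt. Mmp19, a secreted metalloprotease of broad specificity, had 20.5, 14.0 and 17.7 in Ko, against 10.1, 10.5 and 11.7 in Wt, and its exons overlap those of Tmem198b, so that reads could be shared. Neither passed any of the tests.

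The gelatinases Mmp2 and Mmp9 digest denatured collagen and type IV collagen of the basement membrane. Mmp2 had 2380.3, 1887 and 1497 normalized counts in Ko, against 1137, 1585 and 492 in Wt. Ko was higher in each pair of equal number, by 1.07, 0.25 and 1.60 on the log2 scale, although Ko library 3 lay below Wt library 2. The log2 difference was 0.97 ± 0.44 (SE). Its adjusted p was 0.909 by limma, 0.695 by DESeq2, 0.0149 by DESeq2 with the replicate block and 0.00633 by DESeq2 with the code. Mmp2 is made mainly by fibroblasts in skin, and 6 of 9 fibroblast markers were detected, Pdgfrb, Lum and Dpt being below the limit. The summed normalized counts of the list, mostly Dcn, were 7619, 6682 and 2018 in Ko and 5722, 10402 and 3422 in Wt. The markers did not move together, so this sum follows Dcn and not the list. Dcn and Thy1 were lowest in the DM24 library (replicate 3) of each genotype, while Col1a1, Col1a2 and Col3a1 were highest there. Col1a1 had 33.9, 82.4 and 154 in Ko, against 55.5, 29.7 and 354 in Wt. Pdgfra was highest in the DM24 library of Ko only. The part of fibroblast RNA in the Mmp2 values was not tested. In the DM22 libraries alone the DESeq2 adjusted p of Mmp2 was 0.0881. Mmp2 lies at chr8:92827291-92853420 on the plus strand.

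Mmp9 is known from neutrophils, macrophages and keratinocytes at wound edges. It had 60.6, 148 and 988 normalized counts in Ko, against 77.3, 81.4 and 747 in Wt. The DM24 library was the highest of its genotype in both groups and the DM22 libraries of both overlapped, with a log2 difference of 0.30 ± 1.29 (SE, limma adjusted p = 0.999).

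The membrane-anchored metalloproteases were not separated by genotype. Mmp14 had 5211, 5050.2 and 3815 normalized counts in Ko, against 5052, 5515 and 4478 in Wt, a log2 difference of −0.10 ± 0.14 (SE, limma adjusted p = 0.996). Mmp15 (MT2-MMP) had 819, 904 and 659 in Ko, against 374, 694 and 558 in Wt. The log2 difference of Mmp15 was 0.58 ± 0.25, and the groups overlapped through Ko library 3. Of the 14 detected Mmp genes, 10 had a log2 difference above 0 and 4 below, with a median of 0.24. Without a term limma, edgeR and DESeq2 called 0 of them, with 0 at an unadjusted p under 0.05 by limma and edgeR and 2 by DESeq2 (Mmp2 and Mmp15). With the replicate block limma held Mmp2, Mmp10 and Mmp15 at an unadjusted p under 0.05 and edgeR these and Mmp13, and the call of Mmp2 by DESeq2 came in the fits with a term.

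The collagenases Mmp13 and Mmp1b, the stromelysins Mmp3 and Mmp10 and the macrophage elastase Mmp12 sit in one cluster of 10 Mmp genes on chromosome 9. Yap1 lies on the same chromosome at position 7931999 to 8004596, and the cluster ends 232.4 kb from it (Mmp7) and reaches to 648.7 kb (Mmp13). The floxed Yap allele and any sequence linked to it were thus shared by all Ko libraries, and linkage and loss of Yap cannot be told apart for these genes. Of the 10 genes, 5 were detected. Their log2 differences were all above 0, with a median of 0.28, although Mmp12 stood at −0.049 after quantile normalization and Mmp3 at −0.15 by edgeR and DESeq2. Limma, edgeR and DESeq2 called 0 of the 5, with 0 at an unadjusted p under 0.05 without a term. With the replicate block Mmp10 was under that level by all 3 tools and Mmp13 by edgeR. The 7 detected genes within 2 Mb of Yap1 that belong to other families had a median of 0.01, and the same tests called 0 of them, again with 0 at an unadjusted p under 0.05 without a term.

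**Figure D2:**
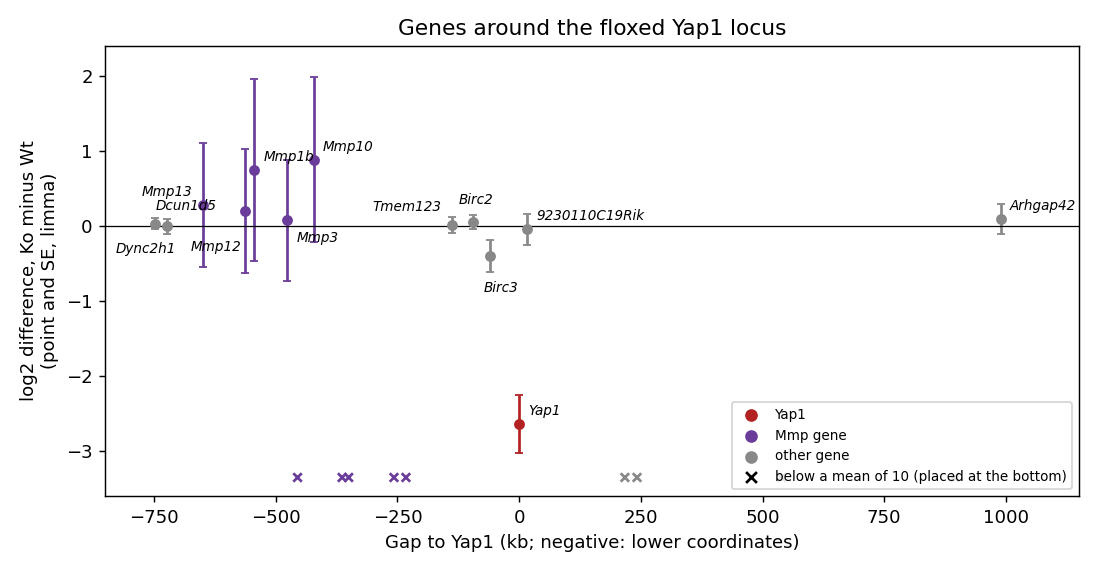
Log2 difference (Ko minus Wt, limma, bars show the SE) of the genes around Yap1 against the gap between gene and Yap1 in kb, with crosses for genes below a mean of 10. Yap1 stands at −2.63, the 5 detected Mmp genes lie between 0.07 and 0.88 with SEs of 0.81 or more, and Birc3 at −0.40 is the lowest neighbour.

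The promoters of the detected cluster genes are shown because the cluster lies beside the targeted allele and 3 of the 5 genes (Mmp13, Mmp10 and Mmp1b) were called on the DM code. The runs are the 100 bases before the RefSeq start of each gene (GRCm38.p6, 5′ to 3′ on the gene's strand), with the letters TGANTCA, the binding motif of the AP-1 factors Fos and Jun, in capitals. The windows lie at chr9:7272414-7272513 (Mmp13, plus strand), chr9:7347274-7347373 (Mmp12, plus), chr9:7388027-7388126 (Mmp1b, minus), chr9:7445722-7445821 (Mmp3, plus) and chr9:7502242-7502341 (Mmp10, plus).
Mmp13: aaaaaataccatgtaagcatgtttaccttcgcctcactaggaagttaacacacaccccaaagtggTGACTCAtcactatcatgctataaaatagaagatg
Mmp12: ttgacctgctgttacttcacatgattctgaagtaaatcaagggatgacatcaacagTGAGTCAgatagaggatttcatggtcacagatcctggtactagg
Mmp1b: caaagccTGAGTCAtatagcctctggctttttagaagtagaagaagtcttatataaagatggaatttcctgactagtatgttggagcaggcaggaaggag
Mmp3: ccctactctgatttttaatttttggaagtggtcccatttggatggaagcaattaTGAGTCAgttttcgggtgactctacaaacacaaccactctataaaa
Mmp10: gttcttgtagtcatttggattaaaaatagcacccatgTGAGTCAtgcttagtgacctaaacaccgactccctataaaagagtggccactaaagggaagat
Each of the 5 runs held the motif once, 35 to 93 bases before the start, for Mmp12 at 1 of its 2 RefSeq starts. Of all 10 genes of the cluster, 8 held it within 95 bases. TGANTCA is its own reverse complement, so both strands are covered by 1 search, and 6.75% of all 32851 windows of 250 bases held it. The 29 detected genes of the families that matched had 33 such windows, and 7 of these held it (21.2%), the other two being Plaur and, at 1 of its 3 starts, Adam19. The letters GGAATG, the motif of the Tead factors through which Yap binds DNA, searched on both strands, were in 3 of the 33 windows (9.09%: Adam19, Reck and Timp1), against 12.6% of all windows. The GLI letters GACCACCCA of Hedgehog targets were in 0 of the 33, against 0.225% of all. A match describes these letters only and is not a bound site.

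Most of these genes differed more between libraries of different code than between genotypes. Mmp13 had 299.7, 335 and 1321 normalized counts in Ko, against 213, 296 and 1178 in Wt, and the DM24 library was the highest in each genotype. Mmp10 had 58.9, 98.1 and 370.5 in Ko, against 20.2, 55.5 and 291 in Wt. Mmp1b had 7.13, 7.42 and 59.4 in Ko, against 1.68, 7.66 and 36.4 in Wt. It shares exonic bases with Mmp12 and is a near copy of Mmp1a, so that its reads are uncertain. Between Ko and Wt, the log2 differences were 0.28 ± 0.82 for Mmp13, 0.88 ± 1.10 for Mmp10 and 0.75 ± 1.21 for Mmp1b (SE), and in each the groups overlapped. Within pairs of equal number the log2 difference was 0.49, 0.18 and 0.17 for Mmp13 and 1.5, 0.81 and 0.35 for Mmp10, above 0 in each, and 1.60, −0.041 and 0.69 for Mmp1b. With the replicate block the adjusted p was 0.524 for Mmp13 and 0.440 for Mmp10 by limma. Mmp3 had 176, 117 and 398 in Ko, against 62.2, 471 and 238 in Wt, so that its direction differed between pairs (1.48, −2.0 and 0.74).

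**Figure D3:**
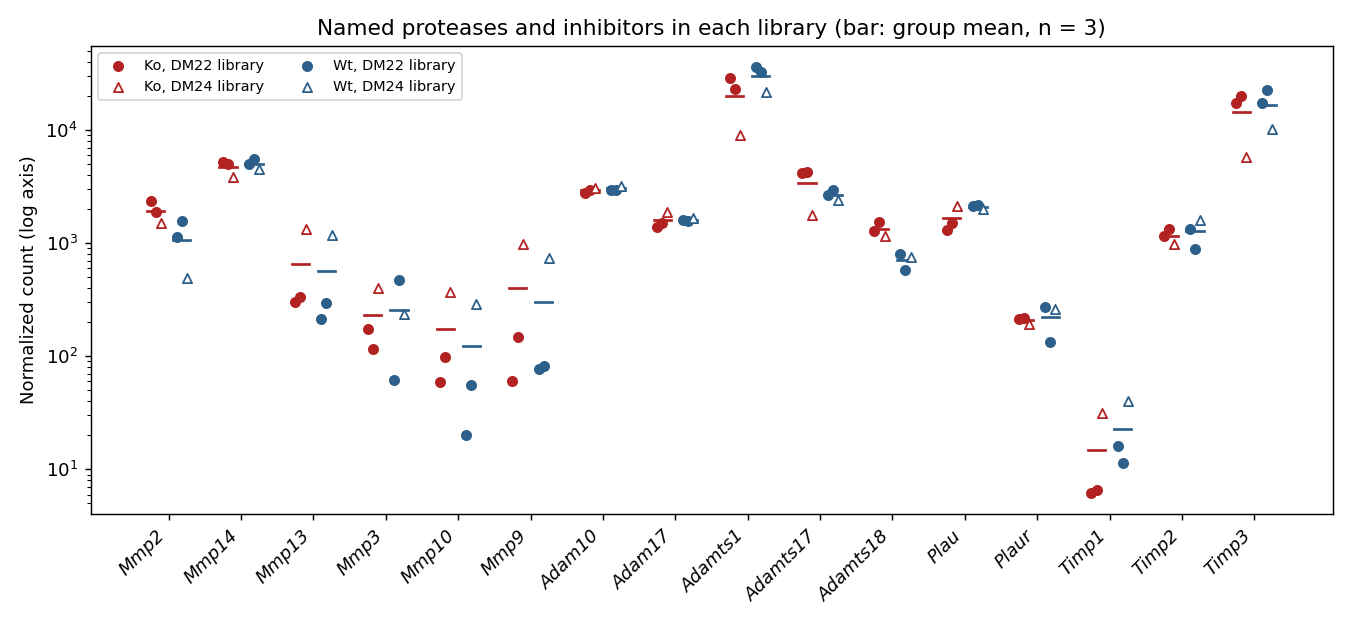
Normalized counts (log axis) of 16 proteases and inhibitors in each library, with Ko left of Wt, triangles for the DM24 libraries and bars for the mean of 3. In Mmp9, Mmp10 and Mmp13 the triangles lie above the circles of both genotypes, and in Adamts1 and Timp3 they lie below them.

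The DM24 libraries were then compared with the DM22 libraries in a fit that kept genotype as a term, which was added after the data had been seen. Of the 44 genes, limma called 9 (20.5%), against 6.75% of all genes tested. The 6 that were higher in DM24 (13.6%, against 2.68% of all genes) were Mmp9, Mmp10, Mmp13, Mmp1b, Adamts4 and Timp1. The 3 that were lower (6.82%, against 4.07%) were Adamts1, Adamts8 and Timp3. The edgeR test called these and Adamts20, 10 in all, against 6.88% of all genes, and DESeq2 called 16 (36.4%), against 15.0%. Sex by transcripts, sequencing depth and the code run together, with 2 libraries against 4, and cannot be told apart here.

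The shifts with the code were large. Mmp9 had 988 and 747 normalized counts in the DM24 libraries of Ko and Wt, against 60.6 to 148 in the 4 DM22 libraries, a log2 difference of 3.29 ± 0.35 (SE, limma adjusted p = 0.0145). Mmp13 differed by 2.14 ± 0.15 on the log2 scale (limma adjusted p = 0.00325), Mmp10 by 2.67 ± 0.47 (limma adjusted p = 0.0372) and Mmp1b by 2.91 ± 0.54 (limma adjusted p = 0.0386). Adamts4, an aggrecanase, had 34.1 and 53.3 normalized counts in the DM24 libraries of Ko and Wt, against 6.60 to 20.2 in the DM22 libraries. Adamts8, an Adamts protease described as inhibiting blood vessel growth, was at 1.26 and 0 in the DM24 libraries of Ko and Wt, against 11.8 to 23.1 in the DM22 libraries. Its DM24 values are below the level of 3 reads, so no fold is given.

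Other gene groups were set beside the code. The summed S100a8, S100a9 and other neutrophil markers, of which 3 of 6 in the table were detected and Csf3r was at 0, were 1992, 3583 and 30472 normalized counts in Ko, against 8181, 1556 and 24647 in Wt. S100a8 and S100a9, also made by stressed keratinocytes, were not called on the code by limma (adjusted p = 0.0623 and 0.0509). DESeq2 called both as higher in the DM24 libraries (adjusted p = 0.0142 and 0.00456). The edgeR test called S100a9 (adjusted p = 0.0466) and not S100a8 (adjusted p = 0.0606). The sum of 4 suprabasal keratinocyte markers, all detected, was 13294, 18492 and 84789 in Ko, against 14540, 22083 and 27736 in Wt, where library 3 was close to library 2. Of 24 genes known to be induced when tissue is dissociated, such as Jun, Egr1 and Hspa1a, limma called 16 as lower and 1 as higher in the DM24 libraries, against 4.07% and 2.68% of all genes. Jun, a subunit of AP-1, had 51124, 49902 and 14634 in Ko, against 90055, 84606 and 26949.9 in Wt, lowest in the DM24 library of each genotype. Of the detected genes with the AP-1 motif, Mmp10, Mmp12, Mmp13, Mmp1b and Adam19 were highest there in each genotype. Mmp3 was so in Ko only and Plaur in neither. The part of Jun and of the other gene groups in the protease values was not tested.

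**Figure D4:**
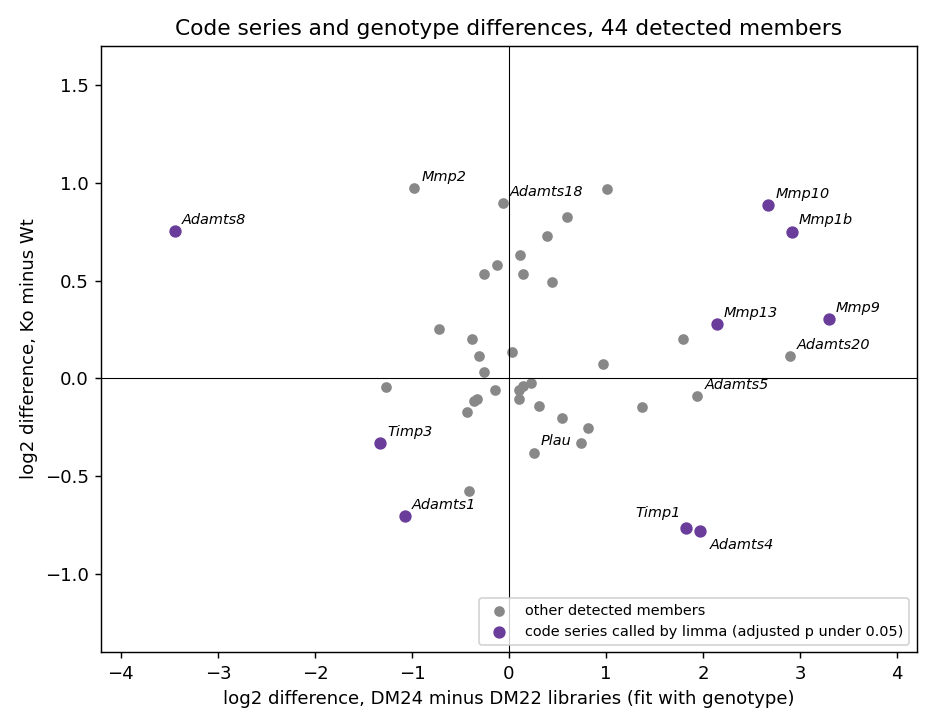
Log2 difference of each detected gene between DM24 and DM22 libraries (horizontal axis) and between Ko and Wt (vertical axis), both from limma, with purple for genes called on the code. Mmp9 at 3.29 lies farthest to the right and Adamts8, whose DM24 values are under the level of 3 reads, farthest to the left, while no gene exceeds 0.97 on the vertical axis.

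The 14 detected Adamts genes split evenly, with 7 log2 differences above 0 and 7 below and a median of 0.01. Adamts1 had 28573, 22897 and 9055 normalized counts in Ko, against 35915, 32682 and 21822 in Wt. Each Ko library was below the Wt library of its number, with log2 differences of −0.33, −0.51 and −1.27, and the groups overlapped because Wt library 3 was low as well. The means were 20175 ± 10039.9 in Ko and 30139.5 ± 7383 in Wt (SD, n = 3 each), with a log2 difference of −0.70 ± 0.45 (SE). Its adjusted p was 0.966 by limma, 1 by DESeq2, 0.0264 by DESeq2 with the replicate block and 0.0226 by DESeq2 with the code. Adamts1 was also lower in the DM24 than in the DM22 libraries, with a log2 difference of −1.07 ± 0.21 (SE, limma adjusted p = 0.0458). In the DM22 libraries alone its genotype difference was −0.41 on the log2 scale (DESeq2 adjusted p = 0.172). It lies on the minus strand at chr16:85793827-85803113.

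Adamts17, a secreted protease tied to fibrillin fibres in human disease of the eye and skeleton, had 4144, 4275 and 1790.5 normalized counts in Ko, against 2642, 2941 and 2417 in Wt. Both DM22 libraries of Ko were above all Wt libraries and the DM24 library of Ko was below them all. The log2 difference over all pairs was 0.25 ± 0.34 (SE, limma adjusted p = 0.996). In the DM22 libraries alone DESeq2 called it as higher in Ko (log2 0.60, adjusted p = 6.8e-05), one of 3 calls among the 44 genes against 1.96% of all genes. The pairs stood at 0.65 and 0.54 in DM22 and at −0.43 in DM24 on the log2 scale, and the DESeq2 interaction was −1.02 (adjusted p = 0.0071), with an arm of 1 library per genotype in DM24. It was the only one of the 44 genes called in that test, which called 0.263% of all genes. The limma and edgeR interaction tests called 0 of the 44 and 0 of all genes, with 6 of the 44 (13.6%) at an unadjusted p under 0.05 by each, against 5.47% of all genes by limma and 5.26% by edgeR, and an adjusted p for Adamts17 of 0.867 by limma and 0.895 by edgeR.

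The remaining Adamts genes were not separated by genotype. Adamts5, the main aggrecanase of mouse cartilage, had 212, 258 and 1048 normalized counts in Ko, against 476, 159.9 and 914 in Wt, and DESeq2 called it as higher in the DM24 libraries (adjusted p = 0.000114) while limma did not (adjusted p = 0.0576). Adamts4 had a genotype difference of −0.78 ± 0.83 on the log2 scale and Adamts8 one of 0.75 ± 1.37 (SE). Adamts2 and Adamts14, which trim procollagens, were low: Adamts2 had 11.6, 13.2 and 13.9 normalized counts in Ko, against 3.36, 7.66 and 11.7 in Wt. Adamts14 had 48.2, 45.3 and 58.2 in Ko, against 55.5, 174 and 44.2 in Wt, and 1 Wt library set its log2 difference of −0.58 ± 0.52. Adamts10, another protease of fibrillin fibres, had 253, 311 and 392 in Ko, against 398, 207 and 637 in Wt.

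The sheddases of the Adam family had small genotype differences. Adam10, which cuts Notch receptors and E-cadherin, had 2768, 2927 and 3090.3 normalized counts in Ko, against 2978, 2979 and 3177 in Wt, a log2 difference of −0.06 ± 0.07 (SE, limma adjusted p = 0.996). Adam17, which releases TNF and ligands of the EGF receptor, had 1398, 1510.3 and 1897 in Ko, against 1603, 1576 and 1669 in Wt, a log2 difference of −0.02 ± 0.12 (SE). In both the groups overlapped. Adam9 and Adam15, sheddases with integrin-binding domains, had log2 differences of −0.12 ± 0.19 and 0.14 ± 0.11 (SE). Adam8, known from leukocytes and from invasive tumours, had 763, 929.9 and 1132 in Ko, against 488, 897 and 603 in Wt, a log2 difference of 0.53 ± 0.25. Adam19 stood near the limit of detection, with 10.7 to 16.4 in Ko and 0.958 to 15.6 in Wt.

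All 3 detected Timp genes lay below 0 on the log2 scale (median −0.33), and limma, edgeR and DESeq2 called 0 of them, with 0 at an unadjusted p under 0.05. Timp3 had 17224, 20056 and 5725 normalized counts in Ko, against 17202, 22533 and 10168 in Wt. The difference between Ko and Wt was −0.33 ± 0.54 on the log2 scale (SE, limma adjusted p = 0.996), and that between DM24 and DM22 was −1.33 ± 0.20 (limma adjusted p = 0.0299). Timp3 lies inside the gene Syn3 and shares exonic bases with it, and Syn3 reads could not be separated by strand. Timp2, which blocks Mmp2 and takes part in its activation, had 1158, 1343 and 982 in Ko, against 1345, 885 and 1595 in Wt. Timp1, an inducible inhibitor, was low, with 6.24, 6.60 and 31.6 in Ko, against 16.0, 11.5 and 40.3 in Wt. Reck, a membrane-anchored inhibitor of several metalloproteases, had 68.7, 74.2 and 80.9 in Ko, against 92.5, 51.7 and 172 in Wt, a log2 difference of −0.33 ± 0.43 (SE).

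The plasminogen activators and their receptor overlapped between the groups. Plau had 1294, 1519 and 2147 normalized counts in Ko, against 2124, 2182 and 2007 in Wt. The log2 difference was −0.71 and −0.52 in the DM22 pairs and 0.10 in the DM24 pair. Over all libraries it was −0.38 ± 0.18 (SE, limma adjusted p = 0.925), and DESeq2 on the DM22 libraries alone called it as lower in Ko (log2 −0.61, adjusted p = 0.0025). Plau lies at chr14:20836660-20843385 on the plus strand. Plat (tissue plasminogen activator) had 866, 697 and 564 in Ko, against 652, 734 and 666 in Wt, a log2 difference of 0.03 ± 0.16. Plaur, the urokinase receptor, had 214, 217 and 192 in Ko, against 275, 133 and 264 in Wt, a log2 difference of −0.04 ± 0.29. Its promoter window held the AP-1 motif 69 bases before the start.

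The partners of plasmin, taken from a list of 20 genes of which 13 were tested, had 3 log2 differences above 0 and 10 below, with a median of −0.11 against −0.00 for all genes. Without a term limma, edgeR and DESeq2 called 0 of them, with 1 at an unadjusted p under 0.05 by each. With the replicate block or the code DESeq2 called 1 as lower, Serpinh1 (HSP47, a collagen chaperone and not a protease inhibitor). Serpinh1 had 24043, 27072 and 7799 normalized counts in Ko, against 34707, 33833 and 11713 in Wt. Serping1, the C1 inhibitor, had 25.9, 28.9 and 30.3 in Ko, against 125, 41.2 and 74.1 in Wt, with no overlap and no call (DESeq2 adjusted p = 0.212).

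Of 36 genes whose products activate, chaperone or anchor these proteases or bind them, 31 were tested, with 18 log2 differences above 0, 13 below and a median of 0.05. Without a term, limma gave 5 of the 31 an unadjusted p-value below 0.05, against 5.55% of all genes. The number was 5 by edgeR, against 5.63% of all genes, and 7 by DESeq2. The groups did not overlap for 5 genes that were higher in Ko and 1 that was lower, against 11.0% of all genes in both directions together. After adjustment the calls were 0 by limma, 0 by edgeR and 1 by DESeq2, against 0.490% of all genes by DESeq2. The gene called, as lower, was Adamtsl5, an Adamts-like protein without a protease domain. It had 439.7, 433 and 478 normalized counts in Ko, against 667, 691 and 596 in Wt, without overlap, a log2 difference of −0.53 ± 0.10 (SE, DESeq2 adjusted p = 0.00672, limma adjusted p = 0.667). By DESeq2 this adjusted p was 0.123 with the replicate block, 0.00512 with the code and 0.00909 in the DM22 libraries. Spock2 (testican-2, a proteoglycan that modulates membrane-type metalloproteases) had 647, 537 and 338 in Ko, against 311, 295 and 224 in Wt, also without overlap. Its log2 difference was 0.84 ± 0.27 (SE), and its DESeq2 adjusted p was 0.00322 with the block, 8.05e-05 with the code and 0.177 with neither. DESeq2 also called Thbs2 as higher in Ko with the code (adjusted p = 0.0191) and not with the block (adjusted p = 0.0712). It called Thbs1 as lower with the block (adjusted p = 3.01e-05), with the code (1.38e-07) and in the DM22 libraries alone (5.74e-05). Neither was called without a term. Thbs1 had 47119.5, 45578.5 and 9461 in Ko, against 64609.8, 71858 and 17433 in Wt, lowest in the DM24 libraries.

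Among 46 other pericellular proteases and inhibitors 35 were tested, with 13 above 0, 22 below and a median of −0.05, and in the fits with no added term DESeq2, limma and edgeR called 0 of them, with 3 at an unadjusted p under 0.05 by each. With the block DESeq2 called 1 as higher in Ko and 2 as lower, against 0.417% and 0.819% of all genes. With the code it called 2 as higher and 1 as lower, against 0.761% and 1.46%. Ctsl was lower with the block (DESeq2 adjusted p = 0.00136) and not called with the code (0.187). Anpep, without overlap, was higher with the code (DESeq2 adjusted p = 0.0453) and not called with the block (0.255). Cathepsin H (Ctsh), a lysosomal cysteine protease, had 667, 669 and 1087 normalized counts in Ko, against 1638, 1182 and 1469.7 in Wt. All Ko libraries were below all Wt libraries, and the DESeq2 adjusted p was 0.0042 with the block, 0.00164 with the code and 0.118 with neither. The cathepsin inhibitor Cst6 had 180.1, 166 and 857 in Ko, against 95.8, 83.3 and 347 in Wt, higher in Ko in each pair, with a DESeq2 adjusted p of 0.000332 with the block, 1.37e-06 with the code and 1 with neither.

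All 24 genes of the dissociation response lay below 0 on the log2 scale between Ko and Wt (median −0.60), against 51.0% of all genes. Without a term DESeq2 called 0 of them, with 2 at an unadjusted p under 0.05, and limma and edgeR called 0, with 1 each. DESeq2 called 9 as lower in Ko with the replicate block, against 0.819% of all genes, and 10 with the code, against 1.46%, among them Jun, Egr1 and Hspa8. The 9 detected genes of a list of 11 proteases and inhibitors known as inducible through AP-1 had a median of 0.20, with 6 above 0 and 3 below and 0 called by limma, edgeR or DESeq2, with 0 at an unadjusted p under 0.05 in the fits without a term. The part of the dissociation response in the protease values was not tested.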

How the data were processed

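RNA was purified with a column kit and libraries were made with TruSeq v2 chemistry, per the labels' protocols; the kit does not mark strand. The genome build was mm10 (GRCm38), and STAR 2.5 and DESeq2 1.18.1 are named among the tools, per the submitters' processing notes; which counter and gene models the authors used is not given in the sources used here. The deposited values were read counts divided by a size factor per library, a normalized signal that the authors made, and every value came out as whole reads to within 0.001. The recovered reads per library ranged from 15405490 to 25260431.

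Ko and Wt were compared with limma 3.58.1 on log2(normalized count + 1), a scale that understates changes of low genes, across 13671 genes with a mean of at least 10. P-values were two-sided with Benjamini-Hochberg adjustment over all of these at 0.05. Recovered reads were also tested with edgeR 4.0.16 (quasi-likelihood) and DESeq2 1.42.0. The scripts were tested on simulated data with a code effect. There 5 of 185 DESeq2 calls were unchanged genes with no term, 46 of 239 with the block and 43 of 236 with the code. For limma these were 1 of 150, 21 of 208 and 16 of 205. For edgeR they were 0 of 141, 21 of 210 and 12 of 199. In the fits with a term the share of unchanged genes among the calls was thus above 0.05 for each tool. Alternatives were a replicate block, the title code as a term, other pseudocounts, filters and scalings, and each library left out. Replicate numbers were taken as pairs after same-numbered deviations correlated at 0.333, 0.327 and 0.694. Among the DM22 libraries Ko 1 and Wt 2 correlated at 0.505 and Ko 2 and Wt 1 at 0.260. These values set apart the DM24 pair but not the numbers 1 and 2, so pairs within DM22 are by number only. The pairing was chosen from these same data. With 3 against 3, an exact permutation test cannot go below 0.1.

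The genes and lists were chosen with earlier results of these data known. Named genes were a set list of main members, members called by any test, and the 8 largest differences each way; Adam8, Adam22, Mmp12, Mmp15, Mmp19, Adamts5, Adamts17 and Adamts20 were named after their values were seen. Coordinates are from GENCODE M21 (GRCm38) and promoter sequences from RefSeq (GRCm38.p6), which matched 29 of the 44 detected genes.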

Additional observations from a re-analysis of the deposited data

Results flagged for a closer look

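Adamts17 stood out in the DESeq2 test of whether the genotype difference depends on the code. The difference of differences was −1.02 on the log2 scale (adjusted p = 0.0071), with 1790.5 normalized counts in Ko against 2417 in Wt among DM24 libraries, and 4144 and 4275 in Ko against 2642 and 2941 in Wt among DM22 libraries. The DM24 arm held 1 library of each genotype, and limma (adjusted p = 0.867) and edgeR (adjusted p = 0.895) did not call it and called 0 genes in all.

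Yap1 was flagged by the same test, with an interaction of 1.45 on the log2 scale. Ko library 3 held 1764 normalized counts of Yap1, against 591 and 773 in Ko libraries 1 and 2, and the Wt libraries lay between 5573 and 6004, so that the difference was smaller in the DM24 pair.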

How the results depend on the processing

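The count of members called was 0 by limma and edgeR in all 3 designs and 1 by DESeq2, 3 by DESeq2 with the replicate block (the pairing by replicate number), 3 with the code and 3 in the DM22 libraries alone. Over all genes DESeq2 called 67, with the block 169, with the code 303 and in the DM22 libraries 268, where limma called 2. In the DM22 libraries the median of the detected members was 0.17 and 21 members had groups without overlap, as had 44.7% of all genes with only 2 against 2. Other pseudocounts, filters and scalings kept the limma count at 0, and scalings moved the median of all genes by less than 0.1.

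Leaving out 1 library in turn gave 0 to 3 members and 0 to 235 genes called, medians of −0.071 to 0.14 and 3 to 14 members without overlap. Groups with fewer libraries overlap less often by arrangement alone. No share of all genes without overlap is given for these smaller sets, so the 3 to 14 members cannot be read as a family effect. The direction turned for Mmp3 under DESeq2 (−0.15), DESeq2 with the code (−0.34), edgeR (−0.15) and edgeR with the code (−0.32), and in the DM22 libraries (−0.26 by limma, −0.85 by DESeq2). In the DM22 libraries it also turned for Plaur (0.17 by limma, 0.084 by DESeq2), Timp2 (0.19 and 0.17) and Reck (0.044 by limma). Adamts20 (0.11 by limma) stood at −0.65 by edgeR, −0.25 by edgeR with the block, −0.25 with the code, −0.67 by DESeq2, −0.089 with a pseudocount of 5 and −0.29 after quantile normalization, where Mmp12 stood at −0.049. The cause was not tested.

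With 1 library left out, log2 differences crossed 0 for Mmp9 (−1.53 to 2.34), Mmp13 (−0.82 to 1.37), Mmp10 (−0.64 to 2.23), Mmp1b (−0.21 to 2.41), Mmp3 (−0.81 to 0.72), Mmp14 (−0.19 to 0.038), Adam9 (−0.30 to 0.031), Adam17 (−0.15 to 0.078), Adam19 (−0.014 to 1.53), Adamts4 (−1.91 to 0.11), Adamts8 (−0.50 to 1.79), Adamts5 (−1.13 to 0.68), Adamts20 (−1.24 to 1.93), Mmp12 (−0.43 to 0.99), Adamts10 (−0.70 to 0.13), Adamts14 (−1.18 to 0.021), Timp1 (−1.80 to 0.092), Timp2 (−0.35 to 0.078), Timp3 (−0.67 to 0.23), Reck (−0.82 to 0.10), Plat (−0.12 to 0.20) and Plaur (−0.38 to 0.14). Adamts18 kept 0.76 to 0.99, Mmp2 0.49 to 1.33 and Adamts1 −1.03 to −0.20. Adam8 kept 0.33 to 0.79, and DESeq2 called it without Wt library 2. The block changed no call of limma or edgeR. Genes near 10 normalized counts rest on few reads and had wide errors.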
